A study of Mus musculus with 60 samples.

Results

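The kidney was profiled with 9 of the 60 arrays of a mouse tissue survey on Affymetrix arrays, whose named genes include many of glycan synthesis and breakdown, growth factors and chemokines, and its members are every array that the submitters labelled kidney. A kidney array each came from 5 DKO animals. They carry homozygous knockouts of both B4galnt1 and B4galnt2, genes of GalNAc transferases, and comprised 3 males and 2 females. The other 4 kidney arrays came from 4 WT animals of the same line, 3 males and 1 female. The kidney was set against the mean of the mean levels of 7 other tissues, with all lines and genotypes pooled. Mammary gland, testes and thymus came from the same B4galnt1/B4galnt2 line, 7, 6 and 6 arrays of DKO and WT animals, and each of these 19 arrays came from an animal that also gave a kidney array. Brain, intestine, lymph node and thyroid, 9, 7, 6 and 6 arrays, came from St6galnac2 KO and WT animals, and brain and intestine also from WT animals of a C57 line. For these 4 tissues, the tissue and the mouse line cannot be told apart. Testes are male only, the labels give no age or background strain for the kidney animals, and each array is total RNA of a whole tissue. The series' design text says that expression was used to choose tissues for glycan analysis.

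Of the other tissues, 4 arrays were left out by a limit on 1 gene each, without a comparison of their whole profiles here. They were 1 brain array with Fut9 at 3.21 (log2), 1 intestine array with Fut9 at 9.74, and 2 WT thymus arrays with Prol1 at 13.41 and 13.51. This left 9 kidney arrays against 47 arrays of the other tissues, 56 in all from 18 animals. The only WT thymus array left was that of N9700, so comparisons in WT arrays alone rest on it for thymus. The female thymus arrays came from DKO animals. The levels are log2 RMA values, and levels are compared here between tissues for 1 gene and never between genes. After each gene was centred on its mean over the 8 tissues, every kidney array correlated with the mean of the other 8 kidney arrays at r of 0.949 to 0.973 across genes and with no other tissue above 0.028, so no kidney array stood apart from its label. Kl, Egf, Lrp2 and Cubn, further tubule genes, are not analysed here.

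The kidney filters blood in the glomeruli and recovers solutes in a chain of tubule segments, of which the proximal tubule takes up filtered protein into lysosomes and the thick ascending limb secretes uromodulin into urine. Tubule cells conjugate drugs, hormones and xenobiotics with glucuronic acid or sulfate, and their membranes are rich in sulfated and sialylated glycolipids. Glycan structures are set by the glycosyltransferases, sulfotransferases and sugar transporters of the Golgi and removed by lysosomal hydrolases, the main families on the array.

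The kidney differed from the other tissues in a limited set of genes with large differences, led by uromodulin, a fucosyltransferase, a pair of cytosolic sulfotransferases, an IGF-binding protein, O-glycan enzymes and lysosomal hydrolases. Of 909 genes, 98 (10.8%) were higher in kidney than the mean of the other 7 tissues and 80 (8.8%) were lower, at an adjusted p under 0.05 (limma, Benjamini-Hochberg) and a log2 difference of at least 1. At any size of difference, 626 genes (68.9%) passed the p threshold, so the genes described here were set apart by size. Fut9 is among the 98, but it decided which brain and intestine arrays were used, so its place there is a description. Among the higher genes the median difference was 1.86, and 41 differed by at least 2. Among the lower genes the median was -1.41 and 14 were at -2 or beyond. The median over all 909 genes was -0.13.

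A difference from the mean of other tissues does not make a gene highest in kidney. Of the 98 higher genes, kidney was the highest of the 8 tissues for 58, and 28 genes (3.08% of all) were above each of the other 7 tissues by at least 1 with an adjusted p under 0.05 in all 7 limma contrasts. The 28 include Fut9, again as a description. For 27 genes (2.97%) the lowest kidney array lay above the highest array of every other tissue. That count takes in genes with smaller differences too. Among the 98 higher genes the tissue next to kidney or above it was the intestine for 34 and the brain for 27, against 11 for mammary gland, 9 for testes, 8 for thymus, 5 for lymph node and 4 for thyroid. Without the intestine 44 genes were above each remaining tissue, without the brain 43, and against the 3 other tissues of the B4galnt1/B4galnt2 line alone 70. In the other direction, kidney was lowest of 8 for 23 of the 80 lower genes and below each tissue by at least 1 for a single gene, Tmsb10 (0.11%), which encodes an actin-binding thymosin and was named only after its values were seen. Tmsb10 did not enter the comparison without the probe sets that share probes, and then no gene was below each tissue. With 1 tissue left out at a time the number was 1 to 4, and against the 3 tissues of the same line 9. All 9 kidney arrays lay below every other array for 2 genes (0.22%), Tgfb3 and Pgm2l1, the second also named after its values were seen.

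**Figure D1:**
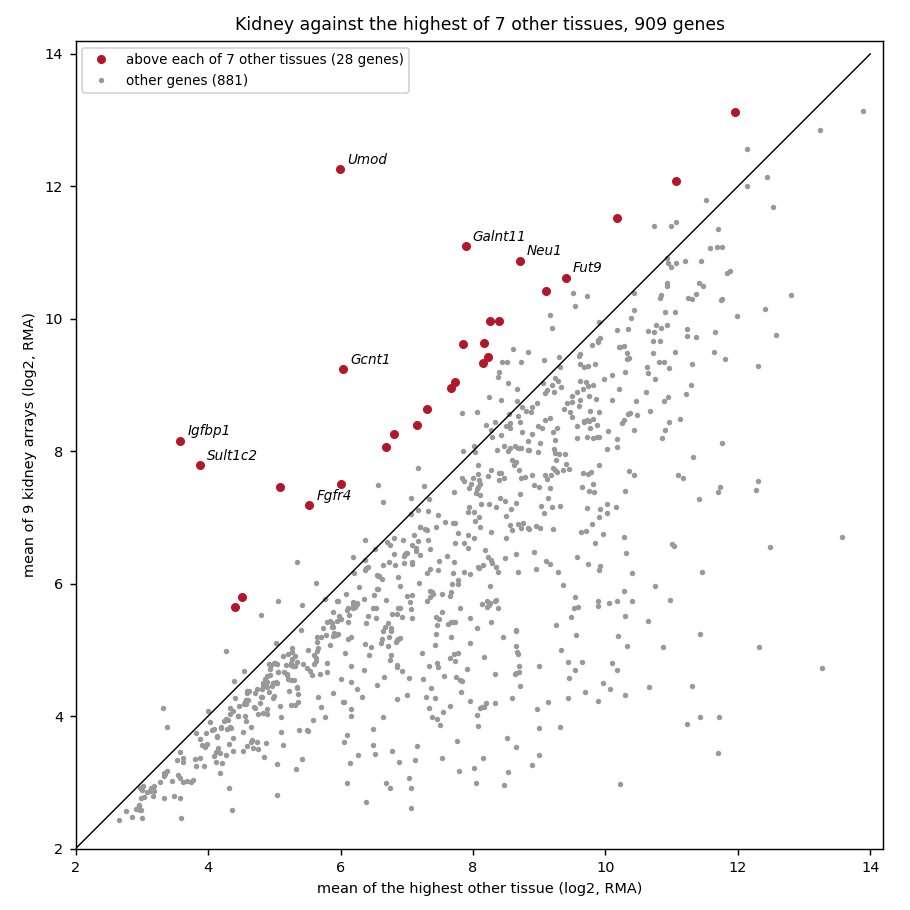
Mean log2 level of the 9 kidney arrays (vertical axis) against the mean of the highest other tissue (horizontal axis) for 909 genes, with the line of equal level. The 28 genes above each of the 7 other tissues are marked, and Umod lies farthest from the line, at 12.26 in kidney against 5.99 in thymus.

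Umod, the gene of uromodulin, the main protein of normal urine, showed the largest difference of all 909 genes. It read 12.23, 12.41, 12.28, 12.24 and 12.09 in the DKO kidneys and 12.49, 12.16, 12.22 and 12.23 in the WT kidneys. The 47 other arrays ended at 7.29, in mammary gland, so the groups were far apart. Kidney averaged 12.26 ± 0.12 (SD, n = 9) against 5.01 for the mean of the other tissues, a log2 difference of 7.25 ± 0.15 (SE), or 153-fold, with an adjusted p of 1.06e-42 (limma).

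Fut9, which adds the α1,3-linked fucose of the Lewis x structure, was shared with the brain. It read 11.05, 11.00, 10.52, 9.47 and 10.44 in the DKO kidneys and 10.81, 10.77, 10.75 and 10.76 in the WT kidneys. Brain arrays ran from 8.64 over a median of 9.33 to 9.92, so the lowest kidney array lay inside the brain range and the other 8 above it. In the other 6 tissues no array passed 5.06. Because Fut9 decided which brain and intestine arrays were used, its differences, 6.29 from the mean of the other tissues and 1.22 from brain, are given as a description.

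Sult1d1, a cytosolic sulfotransferase that acts on catecholamines in the mouse, was shared with the intestine. It read 8.65, 8.71, 8.94, 8.47 and 9.05 in the DKO kidneys and 8.84, 9.42, 9.24 and 9.10 in the WT kidneys, against 8.34 to 9.48 (median 8.51) in intestine. These ranges overlapped fully, and the difference of 0.27 between the tissues did not pass the test (adjusted p = 0.093, limma). Every other array read 3.85 or less, and the difference from the mean of the other 7 tissues was 5.21 ± 0.10 (SE; adjusted p = 2.05e-43, limma).

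St8sia1, GD3 synthase, which adds the first α2,8-linked sialic acid of the b-series gangliosides, was shared with the brain as well. It read 8.48, 8.40, 7.90, 8.74 and 8.62 in the DKO kidneys and 8.31, 8.68, 9.14 and 8.89 in the WT kidneys, against 7.16 to 8.55 (median 7.91) in brain. The ranges overlapped, and kidney was 0.73 higher than brain on average (adjusted p = 7.47e-04, limma), under the difference of 1 required for a call. Lymph node followed at 5.56 ± 0.96 (SD, n = 6), and the remaining 5 tissues averaged 3.80 to 4.18. Umod, Fut9, Sult1d1 and St8sia1 were proposed as kidney markers with these data known, so their differences describe the tissue and are no separate support for its label.

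**Figure D2:**
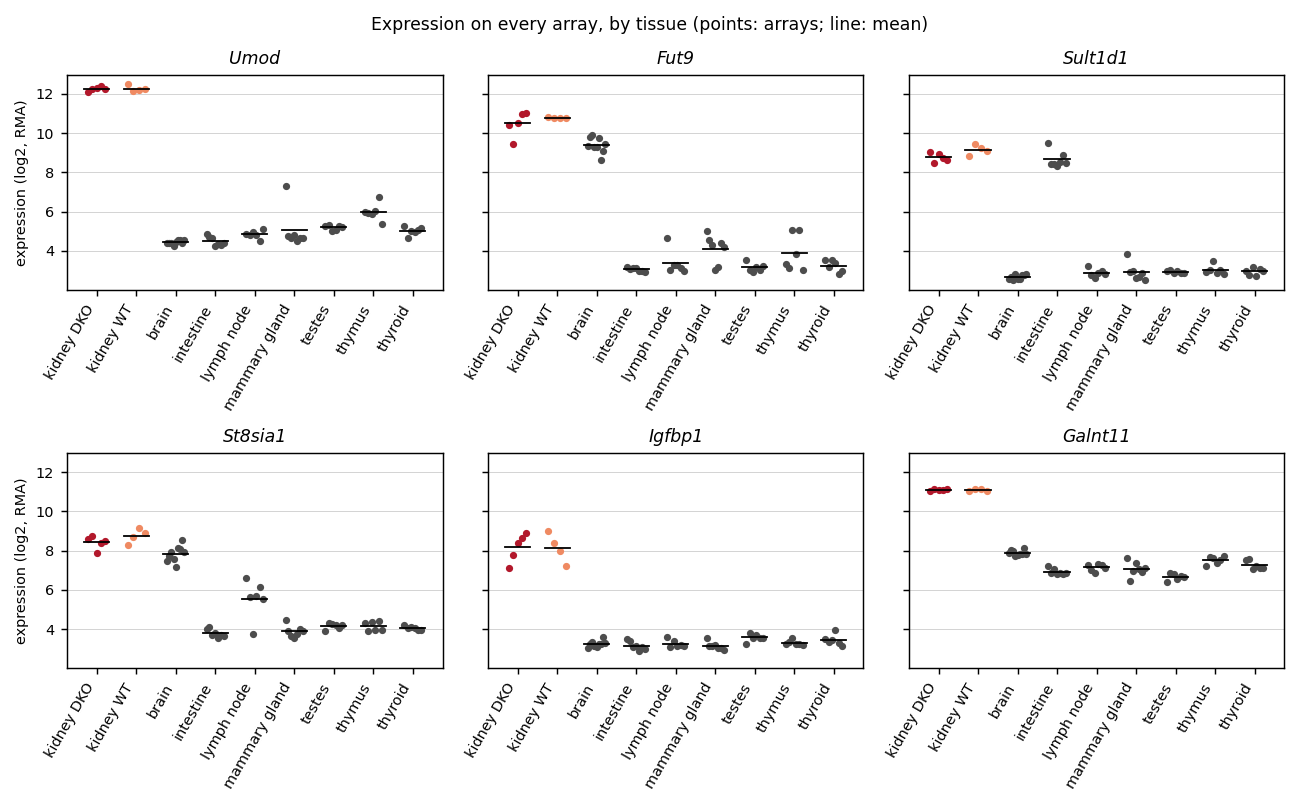
Log2 level on every array for 6 genes, with DKO and WT kidney at the left of each panel, then the 7 other tissues; points are arrays and lines are means. Umod, Igfbp1 and Galnt11 stand above all other arrays, Fut9 and St8sia1 are also high in brain, and Sult1d1 is as high in intestine.

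The promoters of the kidney genes were read for the letters bound by HNF1, a homeodomain factor of kidney tubule and liver cells, and by HNF4, a nuclear receptor of the proximal tubule and liver. The windows run from 250 bases before to 50 bases after the start of each gene in RefSeq on GRCm38.p6, and 24 of the 28 genes above each other tissue and 79 of all 98 higher genes had one. The full HNF1 palindrome and the HNF4 core CAAAGTCCA, searched on both strands, occurred in 0 of the 103 windows of the higher genes, against 0.0609% and 0.475% of all 32851 windows. The HNF1 part GTTAAT, which the longer HNF1 letters contain, occurred in 8 of the 103 windows (7.77%) and in 4 of the 82 windows of the lower genes (4.88%). It occurred in 4.57% of the windows of all genes on the array and in 7.1% of all windows, so the higher genes lay near the share of promoters in general. It was found in Umod, Sult1d1 and Igfbp1, which belong to the 4 genes with the largest differences, and their windows are shown for that reason, 5′ to 3′ on the strand of the gene, with these letters or their reverse complement in capitals. In Umod, at chr7:119479213-119479512 on the minus strand, it begins 202 bases before the start; in Sult1d1, at chr5:87568957-87569256 on the minus strand, 79 before; in Igfbp1, at chr11:7197537-7197836 on the plus strand, 56 before.
Umod: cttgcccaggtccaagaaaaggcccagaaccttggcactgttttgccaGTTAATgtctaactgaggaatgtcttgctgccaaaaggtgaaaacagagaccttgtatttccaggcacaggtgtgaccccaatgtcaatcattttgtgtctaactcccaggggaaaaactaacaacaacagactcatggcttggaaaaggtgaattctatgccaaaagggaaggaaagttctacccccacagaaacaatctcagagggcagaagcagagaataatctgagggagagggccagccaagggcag
Sult1d1: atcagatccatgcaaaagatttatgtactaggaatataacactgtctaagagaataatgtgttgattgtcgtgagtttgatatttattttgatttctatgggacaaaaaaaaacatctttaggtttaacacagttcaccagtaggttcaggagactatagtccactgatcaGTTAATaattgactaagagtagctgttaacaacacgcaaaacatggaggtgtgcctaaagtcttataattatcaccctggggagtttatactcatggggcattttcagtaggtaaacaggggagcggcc
Igfbp1: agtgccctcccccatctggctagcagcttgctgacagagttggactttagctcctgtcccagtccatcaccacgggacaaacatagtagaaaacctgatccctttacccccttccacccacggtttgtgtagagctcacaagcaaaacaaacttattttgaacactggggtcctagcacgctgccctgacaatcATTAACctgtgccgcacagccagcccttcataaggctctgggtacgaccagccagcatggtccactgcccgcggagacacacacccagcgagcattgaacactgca
A match describes the letters and does not show that a factor binds there. Fut9 had no window in the table.

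Igfbp1, a secreted protein that binds insulin-like growth factors, was next among the largest differences. It read 8.90, 8.66, 8.39, 7.77 and 7.13 in the DKO kidneys and 9.01, 8.40, 7.97 and 7.21 in the WT kidneys, and no other array passed 3.98. The kidney arrays spread widely among themselves but none approached another tissue, and the difference from the mean of the others was 4.85 ± 0.12 (SE; adjusted p = 2.30e-38, limma). Sult1c2, another cytosolic sulfotransferase, ran from 7.31 to 8.11 in kidney, against a highest other array of 5.12, in intestine (difference 4.40 ± 0.10). Unlike Sult1d1 it was not shared with the intestine, which averaged 3.87 ± 0.59 (SD, n = 7). Galnt11, a polypeptide GalNAc transferase that glycosylates the endocytic receptor megalin in tubules, was the steadiest of the large differences, at 11.03 to 11.16 over all 9 kidneys against at most 8.14 elsewhere. Its difference of 3.88 ± 0.07 was thus large against a kidney SD of 0.05.

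Gcnt1, which makes the core 2 branch of O-glycans, averaged 9.24 ± 0.15 in kidney (SD, n = 9) against 4.97 for the mean of the other tissues. Its difference was 4.27 ± 0.22 on the brighter probe set, which shares probes with other transcripts, and 2.34 ± 0.07 on the other one, so the direction held and the size did not. Neu1, the lysosomal sialidase, averaged 10.87 ± 0.21 against 7.29 (difference 3.59 ± 0.11) and no other array passed 9.42. Met, the receptor of hepatocyte growth factor, averaged 9.64 ± 0.25 against 6.29 (difference 3.34 ± 0.22), with intestine next at 8.16. Esm1, or endocan, a dermatan sulfate proteoglycan secreted by endothelium, averaged 7.47 ± 0.52 against 4.32 (difference 3.15 ± 0.20), and 2.08 ± 0.12 on its second probe set.

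Another 3 of the 15 largest differences were for metabolic genes shared with the intestine, as Sult1d1 was. Ugt1a6b, a glucuronosyltransferase of phenols, averaged 11.40 in kidney against 10.74 in intestine (adjusted p for this pair = 0.093, limma). Khk, ketohexokinase, the entry step of fructose breakdown, averaged 11.40 against 11.00 (adjusted p = 0.00144). Papss2, which makes the sulfate donor PAPS, averaged 11.47 against 11.07 (adjusted p = 0.331). Their differences from the mean of all 7 tissues were 3.91, 3.54 and 3.38, and the pair differences of 0.66, 0.40 and 0.40 were all under the size required for a call. Ugt8a, which makes galactosylceramide, was lower in kidney than in brain, at 8.17 in kidney against 9.24 in brain.

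**Figure D3:**
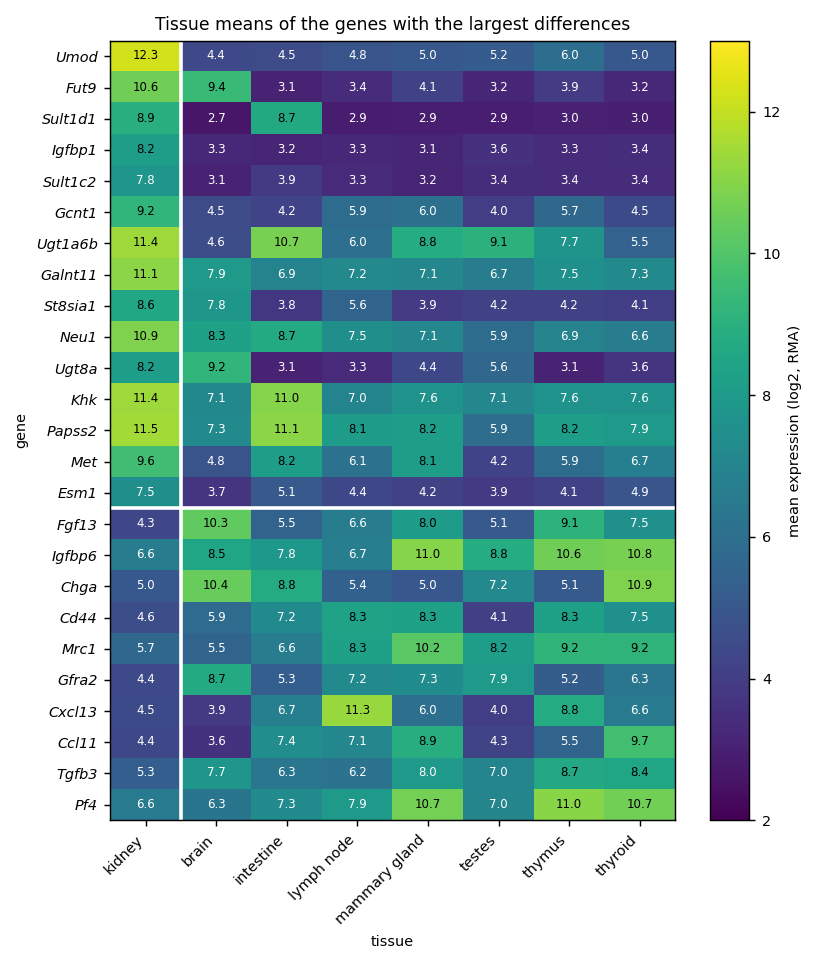
Mean log2 level in each of the 8 tissues, kidney at the left, for the genes with the 15 largest positive (above the white line) and the 10 largest negative differences between kidney and the mean of the other tissues. The intestine shares the high levels of Sult1d1, Ugt1a6b, Khk and Papss2, and the brain those of Fut9, St8sia1 and Ugt8a.

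The counts of the gene lists that follow stand beside 10.8% higher and 8.8% lower over all 909 genes. The conjugating enzymes were represented by few members. Of 9 measured genes of cytosolic sulfotransferases and PAPS supply, 4 were higher in kidney and none lower, Sult1d1, Sult1c2, Papss2 and Papss1 (1.17), and the other 5, among them Sult1a1 at -0.83, were not called, which left the median of the list at -0.01. Of 6 measured genes of the glucuronosyltransferase list, 3 were higher and none lower: Ugt1a6b, Ugt2b5 (1.30 ± 0.25) and Ugdh (1.28), which makes the donor UDP-glucuronic acid. Ugt2b5 and Ugdh were higher still in the intestine, by 2.78 and 0.80, and the second probe set of Ugt2b5 gave 0.19 and was not called. Without testes Ugdh gave 0.88 and Papss1 0.995, just below the limit.

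Of 15 measured genes of ganglioside synthesis, 2 were higher, 6 lower and 7 not called, with a median of -0.73. St8sia1 and B4galt5, a lactosylceramide synthase (1.48 ± 0.14), were the higher ones. B4galt5 stood at 9.68 in kidney, with intestine above it at 9.89. St3gal5, the GM3 synthase that supplies the substrate of St8sia1, was lower, at 6.71 ± 0.13 in kidney (SD, n = 9) against 8.46 for the mean of the others (-1.76 ± 0.10). B4galnt1, GM2 and GD2 synthase and a targeted gene of the line, was lower at -1.66 ± 0.24, as were Ugcg, which makes glucosylceramide (-1.45), B4galnt2 (-1.34), St8sia5 (-1.09) and St3gal1 (-1.08). B4galnt2 was not called in WT arrays alone, at -1.44, nor without intestine, at -0.65, where it is highest, and St8sia5 gave -0.65 without brain and was not called. Within the 3 tissues of the same line B4galnt1 gave -0.59 and was not called.

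Of 8 measured genes of globoside and sulfatide synthesis, 3 were higher and 1 lower, with a median of 0.61. Ugt8a (3.55 ± 0.27) and Gal3st1, the next enzyme, which turns galactosylceramide into sulfatide (1.19 ± 0.09), were both higher. Gal3st1 was at 7.87 ± 0.12 in kidney, with intestine above it at 8.60. B3galt5, a β1,3-galactosyltransferase, was higher at 2.06 but stood at 7.65 in kidney against 8.07 in brain. A4galt and B3galnt1, which make the globosides Gb3 and Gb4, were at 0.37 and 0.84, under the limit for a call. Gal3st2 was lower (-1.15) and highest in intestine, and gave -0.46 without that tissue.

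The other sialyltransferases split evenly, with 2 of 10 higher and 2 lower. St8sia6, an α2,8-sialyltransferase, was higher at 2.96 ± 0.16 and above each other tissue, at 8.40 in kidney against 7.15 in lymph node, the next tissue. St6galnac2, which adds sialic acid to O-glycans, was higher at 1.49 but stood at 9.28 in kidney against 12.30 in testes, and against the 3 tissues of the same line it gave 0.07. This gene is the target of the St6galnac2 line, whose KO arrays are among those of brain, intestine, lymph node and thyroid. The 1.49 is thus not a difference between tissues alone. St8sia4, a polysialyltransferase (-1.62), and St3gal4 (-1.53) were lower, the second giving -0.92 without intestine. Of 26 genes of polypeptide GalNAc transferases and O-glycan cores, 4 were higher (Gcnt1, Galnt11, Gcnt2 at 2.04 and Galnt18 at 1.38) and 2 were lower, one of them Galntl5, a testis gene (-1.18) that was not called without testes. The median of these 26 was -0.17, against -0.13 over all genes. Of 15 genes of N-glycan trimming and branching, Mgat3, which adds the bisecting residue (1.34 ± 0.06), and Mgat2 (1.13 ± 0.12) were higher and none lower. Mgat3 stood at 6.86 in kidney, with brain at 7.21 and intestine at 6.93 above it, and Mgat2 gave 0.93 against the tissues of the same line. Of 15 genes of fucosylation and GDP-fucose supply only Fut9 passed the limits. It decided which brain and intestine arrays were used, so this is a description. The other 14 lay between -0.67 and 0.83.

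Of 24 measured genes of lysosomal glycan degradation, 9 were higher and 1 lower, with a median of 0.75. The 9 cover several glycan classes: Neu1 removes sialic acid, Galc (2.77) degrades galactosylceramide, Arsb (2.44) and Galns (2.10) remove sulfate from galactosamine residues, Glb1 (2.20) is the β-galactosidase, Manba (2.03) the β-mannosidase and Naglu (1.42) a heparan sulfate hydrolase. Gm2a, the GM2 activator (1.29), and Smpd1, acid sphingomyelinase (1.08), complete them. Neu1, Galc, Glb1 and Galns were above each of the 7 other tissues. For Galns this holds for the mean over both sexes. Its kidney arrays ran from 8.12 to 10.32, and the female ones lay at the level of intestine, 8.14 to 8.34. Arsa, which desulfates sulfatide, was lower at -1.11, and Ctsa, the protective protein that Neu1 needs for its activity, was at 0.21. The membrane protein Lamp2, outside this list, was above each tissue as well, at 11.53 ± 0.13 in kidney (SD, n = 9; difference 2.50 ± 0.13), and 1.54 on its second probe set.

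Sugar supply was the other list with 9 higher genes, of 27 measured, with 1 lower and a median of 0.37. Renbp, the epimerase that interconverts GlcNAc and ManNAc and binds renin, averaged 9.61 ± 0.17 in kidney (SD, n = 9) against 7.28 (2.34 ± 0.10), with all kidney arrays above all others. Npl, the lyase that splits sialic acid (1.98), was as high in intestine, at 9.03 in kidney and 9.06 in intestine. The nucleotide sugar transporters Slc35a3 (2.16), Slc35b4 (1.90), Slc35d2 (1.38) and Slc35d1 (1.22), and Slc35e3 (2.13), a transporter of the same family, were higher. Gnpda1, a glucosamine-6-phosphate deaminase (1.54), and Cmah, which hydroxylates CMP-sialic acid (1.37), complete the 9. The enzymes that make CMP-sialic acid were not among them, with Gne at 0.08, Nans at -0.50 and Cmas at -0.57. Gfpt1, which commits fructose 6-phosphate to hexosamines, was lower at -1.28.

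Glycosaminoglycan genes went both ways, as genes did in general (10.8% higher and 8.8% lower). Of 24 genes of heparan sulfate synthesis and modification, 3 were higher, Hs6st1 (1.94), Ndst1 (1.25) and Hs6st2 (1.01), all sulfotransferases, and 4 lower. Sulf1, which removes 6-O-sulfate from heparan sulfate outside the cell, was among the lower ones, at 5.0 ± 0.37 in kidney (SD, n = 9) against 7.12 (-2.12 ± 0.13), with the heparanase Hpse (-1.80), Hs3st1 (-1.61) and Hs3st5 (-1.03). Of 13 genes of chondroitin and dermatan sulfate synthesis, the sulfotransferases Chst7 (1.92 ± 0.23) and Chst11 (1.17 ± 0.24) were higher. Chst11 stood at 8.02 in kidney against 8.83 in brain, and gave 0.99 without testes. Both sulfotransferases had wide kidney ranges, 5.36 to 8.96 and 6.56 to 9.32, and the sexes differed in them. Dsel, an epimerase, was lower at -1.04, a call lost under several alternatives, with -0.82 without mammary gland as the smallest. Of 25 proteoglycan cores, the glypican Gpc4 (2.79 ± 0.17), agrin (Agrn, 1.31), a basement membrane proteoglycan, and the syndecan Sdc2 (1.03) were higher, and the matrix proteoglycans Lum (-2.07), Vcan (-1.48) and Dcn (-1.05) were lower. Sdc2 stood at 8.92 in kidney, with thyroid at 9.12 and thymus at 9.07 above it. The call of Dcn was lost under several alternatives, with -0.75 without mammary gland or thymus as the smallest.

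The insulin-like growth factor list had the highest share of kidney-high genes among the growth factor lists, 7 of 12 measured, with 2 lower and a median of 1.38. Of the binding proteins, Igfbp1, Igfbp3 (2.85 ± 0.22), Igfbp4 (2.52 ± 0.24) and Igfbp7 (2.30) were above each of the 7 other tissues and Igfbp5 (1.55) was higher, whereas Igfbp2 was at 0.05 and Igfbp6 was lower, at 6.60 ± 0.21 in kidney (SD, n = 9) against 9.18 (-2.58 ± 0.25). The receptor Igf1r (1.96) and Igfals, a subunit of the circulating complex (1.21), were higher too. The ligands were not: Igf1 was at -0.86 and not called, and Igf2 was lower at -1.45 ± 0.29. The Igf2 difference came with a split by sex, at 6.42 to 6.63 in male kidneys and 8.87 to 10.24 in female kidneys, against 8.91 for the mean of the other tissues. For a whole tissue, fewer cells of a type and less RNA per cell cannot be told apart in any of these differences.

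Of 16 genes of the klotho, EGF and FGF list, 4 were higher, the ligands Fgf1 (2.53 ± 0.21) and Fgf9 (1.67) and the receptors Fgfr4 (2.41 ± 0.08) and Fgfr3 (1.51). Fgfr4, which mediates FGF signals with klotho proteins, was above each tissue, at 6.80 to 7.69 in kidney against at most 5.57 elsewhere, whereas Fgf9 and Fgfr3 were higher in brain. Areg, an EGF receptor ligand (-1.22), and Fgf7 (-1.08) were lower. Of 19 genes of TGF-beta and BMP signalling, the ligands Bmp4 (2.27 ± 0.12), Bmp7 (2.22 ± 0.10), which the developing nephron requires, and Bmp6 (2.09 ± 0.12) were higher. Tgfb3 was lower, at 5.02 to 5.52 in kidney against at least 5.77 on every other array (-2.17 ± 0.14). Of 18 genes of the VEGF, PDGF and angiopoietin list, 5 were higher, among them Vegfa (1.15) and Angpt2 (1.14), and Angptl1 was lower (-1.35). Vegfa gave 0.58 without testes, Angpt2 gave 0.87 in WT arrays alone and Angptl1 -0.77 without thyroid, so these calls were lost. The Wnt receptor Fzd1 was above each tissue (1.98 ± 0.20), and none of 13 Notch receptors, ligands and modifiers was called, with differences between -0.95 and 0.57.

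**Figure D4:**
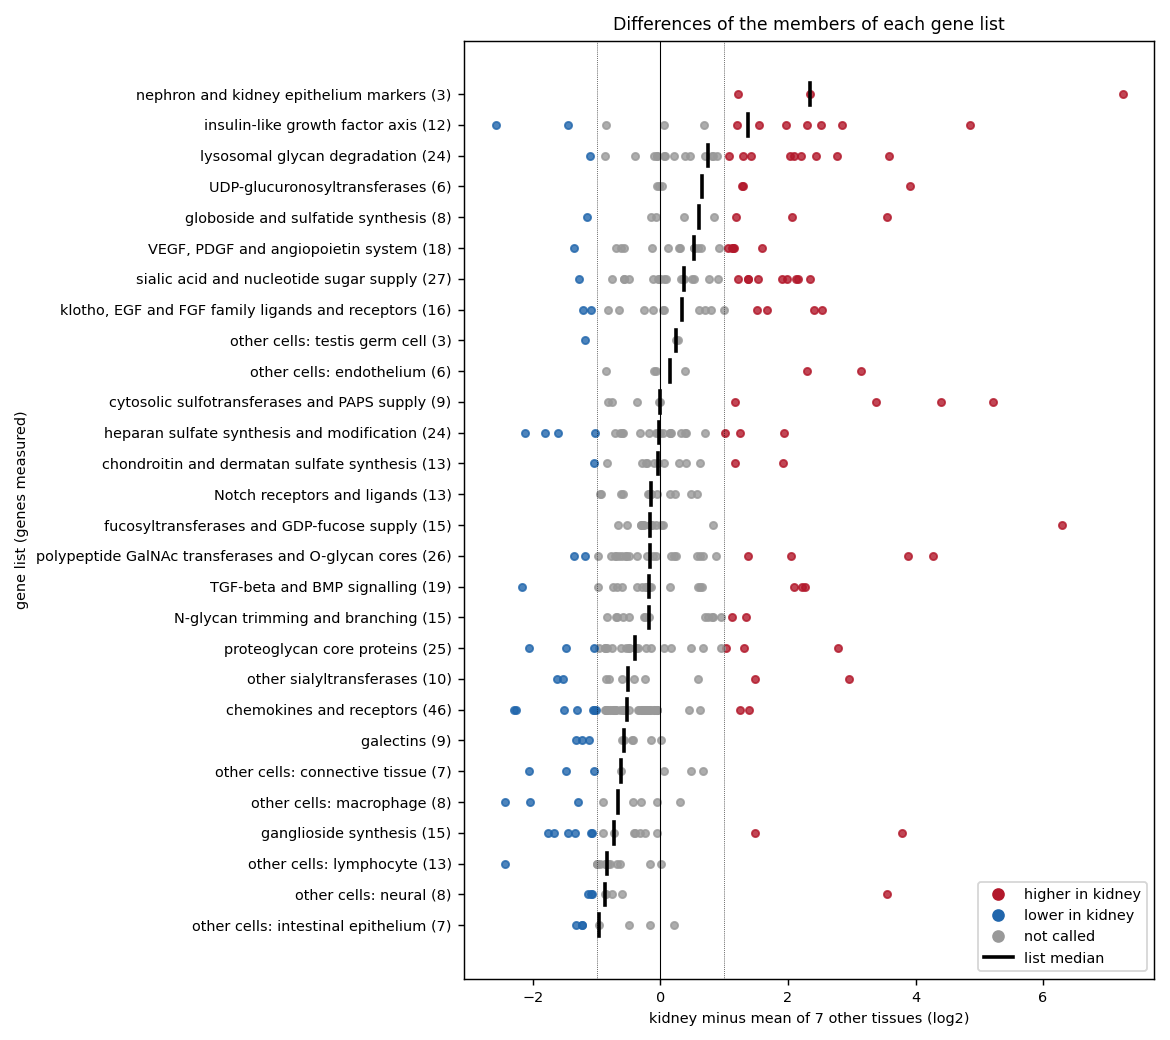
Log2 difference between kidney and the mean of the 7 other tissues for every measured member of 28 gene lists, in order of the list medians (black bars), with dotted lines at the limits of -1 and 1. The insulin-like growth factor list has its median at 1.38 and the lysosomal list at 0.75, against -0.13 for all 909 genes.

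Marker lists of other cells held genes called in both directions and many that were not called, beside 10.8% higher and 8.8% lower over all genes. Of 13 lymphocyte genes none was higher and Cd44, the hyaluronan receptor, was lower (-2.44 ± 0.18). Of 8 macrophage genes none was higher, and Mrc1, the mannose receptor (-2.44 ± 0.14), Clec10a (-2.04) and Clec4n (-1.30) were lower, the last giving -0.85 without lymph node. Of 46 chemokines and receptors, 7 were lower, led by Cxcl13, which attracts B cells (-2.30), and Ccl11, eotaxin (-2.27), and 2 were higher, Cx3cl1, or fractalkine (1.39), and Cxcl12 (1.24). Of 6 endothelial genes 2 were higher, Esm1 and Emcn, endomucin (2.29 ± 0.15), the second below thymus, at 10.31 in kidney against 11.25 in thymus, and Pecam1 was at 0.38. Of 7 genes of intestinal epithelium none was higher, and Reg3b, Lgals4 and Lgals2 were lower (-1.24, -1.23 and -1.32), giving -0.02, -0.28 and -0.33 without it. The largest negative difference of all genes was Fgf13, at 3.90 to 4.86 in kidney against 10.30 in brain (-3.13 ± 0.23), followed by Igfbp6, Chga, chromogranin A of endocrine cells (-2.49, and -0.71 against the tissues of the same line), Cd44 and Mrc1. Gfra2, a neurturin receptor (-2.42), and Pf4, a platelet chemokine (-2.13), belong to the 10 largest as well.

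Havcr1, or KIM-1, a receptor of the proximal tubule that is known to appear after tubule injury, passed the limits in kidney at 1.22 ± 0.22, but its arrays disagreed. It read 7.10, 7.87, 4.52, 7.35 and 5.13 in the DKO kidneys and 4.26, 4.28, 4.64 and 4.57 in the WT kidneys. The DKO kidneys of N5891, N5892 and N5894 thus lay far above the rest. Of the other DKO kidneys, 5.13 (N5895) was above every WT kidney and 4.52 (N5893) lay within the WT range. In WT arrays alone the difference from the other tissues was 0.16 and was not called, and without animal N5892 or N5894 it was 0.92 or 0.99. Between the genotypes the difference was 1.80 ± 0.54 (SE), which did not pass the test (adjusted p = 0.250, limma).

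More kidney genes passed the test for sex than for genotype. In the 9 kidneys, with genotype as a covariate, 22 genes (2.42%) were higher in males and 58 (6.38%) were lower in males than in females (limma, adjusted p under 0.05). Over all 909 genes, all 6 males lay above all 3 females for 57 (6.27%) and below them for 94 (10.3%), and the called genes made up 20 of the 57 and 53 of the 94. Most differences were small, and 16 of the 80 reached 1 in size. Of the male-high genes, 9 were also among the 98 higher in kidney than elsewhere (10.8% of all genes) and 1 was among the 80 lower ones (8.8%). Of the female-high genes, 17 were among the higher and 10 among the lower ones. The only WT female, N9686, and the other females carry this comparison: without N9686 the numbers were 10 and 36, without N5892 24 genes were lower in males, without N5891 36, and in the 5 DKO kidneys alone 9 were higher and 36 lower. With the spread estimated over all groups of the line they were 14 and 10. A second quantile normalization gave 39 higher genes.

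Ugt8a, Chst7 and Chst11 had the largest differences among the male-high genes. Ugt8a read 8.50, 9.12 and 8.90 in DKO males and 9.30, 9.68 and 9.55 in WT males, against 5.98 and 6.26 in DKO females and 6.21 in the WT female. No male overlapped with a female, and the difference was 2.95 ± 0.16 (SE; adjusted p = 2.02e-06, limma). The female kidneys were thus nearer to testes, at 5.61, than to brain, at 9.24, and the kidney mean of 8.17 describes neither sex. Gal3st1, the next enzyme of the pathway, was not among the sex-different genes.

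Chst7, a chondroitin 6-O-sulfotransferase, read 7.46, 8.26 and 8.37 in DKO males and 8.96, 8.94 and 8.67 in WT males, against 5.50 and 6.10 in DKO females and 5.36 in the WT female (2.72 ± 0.27). Chst11, a chondroitin 4-O-sulfotransferase, read 7.43, 8.61 and 8.84 in DKO males and 9.11, 9.32 and 9.10 in WT males, against 6.56 and 6.56 in DKO females and 6.65 in the WT female (2.04 ± 0.27). Csgalnact1, which starts chondroitin chains, was also higher in males (1.07 ± 0.22), and so was Galns, which removes 6-O-sulfate from chondroitin and keratan sulfate in lysosomes, at 9.43 to 10.32 in males against 8.12 to 8.33 in females (1.69 ± 0.13). For Chst7, Chst11 and Galns the sexes were apart, with higher levels in all 6 males. Ugt2b5, a steroid and xenobiotic glucuronosyltransferase, ran from 5.15 to 6.14 in males against 3.50 to 3.98 in females (1.84 ± 0.20). Timd2, a ferritin receptor, was higher by 1.30, Angptl4, an inhibitor of lipoprotein lipase, by 1.30, Angptl7 by 1.12 and Sdc2 by 0.85. Csgalnact1 and Angptl7 did not pass without N9686, at 0.72 and 0.73, nor Timd2 in DKO animals alone, at 1.26.

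Female-high genes were led by Igf2, a fetal growth factor. It read 6.42, 6.46 and 6.46 in DKO males and 6.60, 6.63 and 6.60 in WT males, against 8.87 and 8.90 in DKO females and 10.24 in the WT female. The males lay near the lowest array of the other tissues, 6.44, and every female was above them (-2.90 ± 0.19; adjusted p = 5.55e-06, limma). Ugt1a6b was lower in males, at 10.78 to 11.44 against 11.96 to 12.22 in females (-1.08 ± 0.12), opposite to Ugt2b5. Igfbp1 (-1.07 ± 0.28) and Papss2 (-0.48 ± 0.12), both among the kidney-high genes, were lower in males as well. Igfbp1 failed the test in most of the comparisons that left out 1 animal, at -1.14 to -0.89 in those.

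Matrix genes were among those higher in females. Lum, or lumican, a collagen-binding proteoglycan, ran from 4.53 to 5.49 in males against 5.97 to 6.36 in females (-1.35 ± 0.18). In the list of 7 connective tissue genes, 5 were lower in males and none higher, against 6.38% and 2.42% of all genes. The mean log2 level of the list was 7.05 to 7.39 in males against 7.56 to 7.84 in females. The summed linear level of the list was 1907 to 2460 in males against 2696 to 3394 in females, so the sexes did not overlap. The part of connective tissue content in the other female-high genes, such as Fst, follistatin (-1.05), B3galnt1, globoside synthase (-1.01), Tenm4 (-0.95), Mcoln2, a lysosomal channel (-0.89), and Angpt2 (-0.79), was not tested. B3galnt1 and Angpt2 did not pass without N9686, at -0.86 and -0.69. Macrophage genes overlapped between the sexes, with list means of 5.32 to 5.50 in males and 5.42 to 5.51 in females. The means of the 6 endothelial genes did not overlap, by a narrow gap, at 6.82 to 7.0 in males against 7.02 to 7.11 in females. Their summed linear levels were 1714 to 2382 in males against 2389 to 2574 in females. A single gene of this list was called lower in males. Such gaps were not particular to cell lists, though not every list had one. The insulin-like growth factor list averaged 8.74 to 8.94 in males against 9.30 to 9.38 in females. The chondroitin list averaged 6.35 to 6.76 in males against 6.10 to 6.28 in females. The part of endothelial content in Angpt2 and the other female-high genes was not tested.

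The sex differences of kidney were then set against those of mammary gland and thymus from the same line. The difference between kidney and the mean of these tissues passed the test for 14 genes, 10 with a positive value (1.1%) and 4 with a negative one (0.44%; limma, adjusted p under 0.05). Ugt8a differed by 2.63 ± 0.43 (kidney 2.95, mammary gland 0.40, thymus 0.23), Chst7 by 2.57 ± 0.37 (2.72, 0.35 and -0.04), Chst11 by 2.03 ± 0.35 (2.04, 0.23 and -0.20), Ugt2b5 by 1.74 ± 0.23 (1.84, 0.11 and 0.09) and Galns by 1.71 ± 0.18 (1.69, -0.000280 and -0.05). For these 5 neither other tissue passed the test for sex. Csgalnact1 and Timd2 differed by 1.26 and 1.21 in the same way. Igf2 (-3.14 ± 0.38; kidney -2.90, mammary gland 0.12, thymus 0.36) and Mcoln2 (-1.11) were negative, and for these the sexes of kidney differed.

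For Areg, Dmbt1, Slc35f3 and Gdf10 the sexes of kidney did not pass the test. Areg (3.01), Dmbt1 (2.35) and Slc35f3 (1.33) were lower in males in mammary gland (-5.64, -4.13 and -2.17), while in kidney the sex differences of 0.16, 0.21 and 0.18 did not pass. Gdf10 (-1.15) was at 0.92 in mammary gland and -0.23 in kidney. In mammary gland 17 genes (1.87%) were higher and 62 (6.82%) lower in males. In thymus no gene passed in limma, with 50 at an unadjusted p under 0.05, and its 4 males and 2 females gave the least precise estimates. With the animal as a replicate block 7 genes had a negative difference between tissues in place of 4, as with a second quantile normalization.

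**Figure D5:**
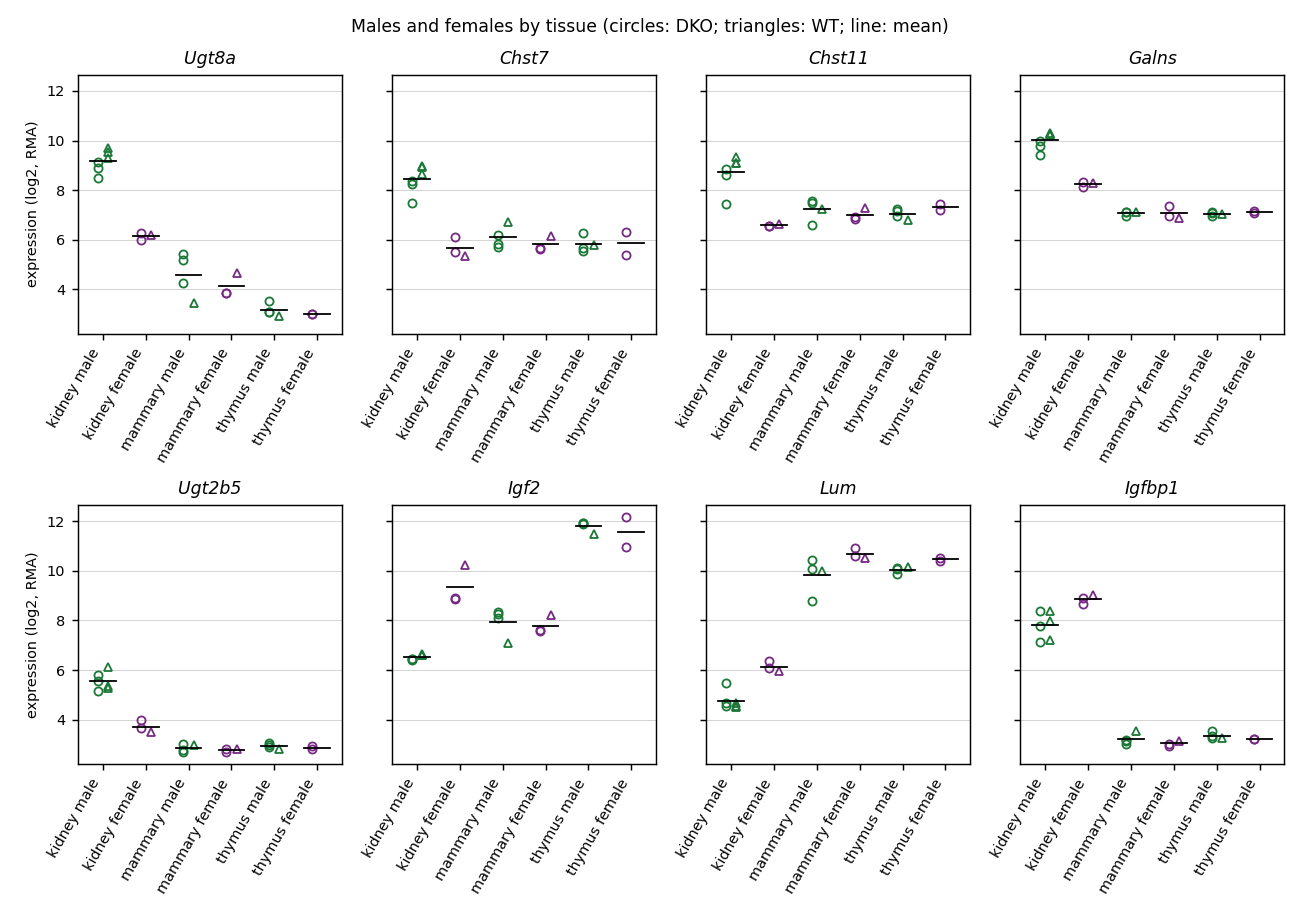
Log2 level in males and females of kidney, mammary gland and thymus of the B4galnt1/B4galnt2 line for 8 genes; circles are DKO arrays, triangles WT arrays and lines means. In kidney the sexes do not overlap for any of the 8 genes, as for Igf2 at 6.42 to 6.63 in males against 8.87 to 10.24 in females.

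The genotypes of the line differed in a single called gene, and the targeted genes did not pass the test. B4galnt1 read 5.77, 6.04, 5.70, 5.35 and 5.30 in the DKO kidneys and 5.93, 5.59, 5.55 and 5.47 in the WT kidneys, and B4galnt2 ran from 3.64 to 4.15 in DKO and from 3.58 to 4.05 in WT. Both targeted genes overlapped between the genotypes (differences -0.07 ± 0.10 and 0.03 ± 0.12, not called), and where their probes lie relative to the deleted parts is not given, so these levels do not check the labels. With sex as a covariate, 1 gene of 909 was lower in DKO (0.11%), St6galnac2, and none was higher (0%; limma, adjusted p under 0.05), with 127 genes at an unadjusted p under 0.05 in either direction.

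St6galnac2 read 8.84, 8.99, 8.99, 9.08 and 9.03 in the DKO kidneys and 9.52, 9.84, 9.71 and 9.53 in the WT kidneys. The genotypes did not overlap, and the difference was -0.65 ± 0.08 (SE; adjusted p = 0.00661, limma). The call was lost without N9686, at -0.66, and with the spread estimated over all groups of the line, at the same -0.65. The next genes by p did not pass: Ppbp, a platelet chemokine (-0.87 ± 0.16; adjusted p = 0.112), Eif5 (-0.37), Fgf1 (-0.51) and Galnt18 (-0.37). Ppbp did pass without N9700 or without N5894, at -1.0 and -0.97, and 2 genes were then called. The kidney-high levels of Umod, Galnt11 and the other markers overlapped between DKO and WT.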

How the data were processed

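Expression in total RNA of mouse tissues was measured on 60 Affymetrix arrays, 9 of them of kidney. The deposited values are log2 expression levels that the authors made with RMA, per the submitters' processing notes, with no version given. They ran from 2.113 to 14.069 and were used as deposited. Of 1246 probe sets, 963 were named through RefSeq accessions (909 genes), of which 217 probe sets are marked as matching more than 1 transcript. Where a gene had more than 1 probe set, the one with the highest mean over all arrays stands for it.

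Tissues were compared with limma 3.58.1 in R 4.3.3 from a mean per tissue, without 4 arrays (brain with Fut9 under 6, intestine with Fut9 over 6, thymus with Prol1 over 8). Kidney genotype and sex were fitted together on the 9 kidney arrays, and sex differences between tissues on kidney, mammary gland and thymus of the same line. P-values were 2-sided and adjusted by Benjamini-Hochberg over the 963 named probe sets. The limit was 0.05, with a log2 difference of at least 1 between tissues. The fits were tested on simulated data. The kidney arrays came from separate animals.

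Named genes were the 4 markers, the 15 largest positive and 10 largest negative differences, up to 20 genes above each other tissue, up to 10 in each direction for sex, the 5 smallest p for genotype, up to 4 called members per gene list, B4galnt1 and B4galnt2. Other genes were named after their values were seen, and 1 gene is not reported here. The members and lists were chosen with earlier results of these data known. Kidney shares animals with mammary gland, testes and thymus. Arrays of the same animal deviated together slightly (median r 0.077 over the 18 pairs that could be computed, against -0.011 between animals), and the animal was a replicate block in an alternative (correlation 0.0729). Other alternatives changed the normalization, the probe sets, the arrays and the tissues used. The number of arrays limits the precision.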

Additional observations from a re-analysis of the deposited data

Results flagged for a closer look

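For 108 genes, 216 groups of DKO or WT kidney arrays were screened for an array far from the others of its group, and 19 had one. Chance marks about 1 in 20 groups, and the genes screened include those named for a sex difference. Of the 19, 15 fell on the WT kidney of N9686, the only WT female. It read low for Ugt8a (6.21), Chst7 (5.36), Chst11 (6.65), Galns (8.30), Timd2 (4.91), Angptl7 (5.31), Sdc2 (8.30), B4galt5 (8.83), Gpc4 (7.89), Gcnt2 (7.11) and Arsb (9.98). It read high for Igf2 (10.24), Papss2 (11.73), Lum (5.97) and Tenm4 (5.95). Another WT kidney, N9700, was low for Fgf9 (7.21). In DKO kidneys, Mrc1 was low in N5894 (5.16), Fgf1 in N5891 (9.50) and Reg3b in N5892 (4.55).

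The male minus female difference of kidney differed, by the limma test of the difference itself, from its mean in mammary gland and thymus for 14 genes. The kidney value minus that mean was 2.63 for Ugt8a, 2.57 for Chst7, 2.03 for Chst11, 1.74 for Ugt2b5 and 1.71 for Galns. It was 1.26 for Csgalnact1, 1.21 for Timd2, -3.14 for Igf2 and -1.11 for Mcoln2. It was also 3.01 for Areg, 2.35 for Dmbt1, 1.33 for Slc35f3 and -1.15 for Gdf10, whose sex difference in kidney did not pass the test. In mammary gland males were lower for Areg (-5.64), Dmbt1 (-4.13) and Slc35f3 (-2.17), and higher for Gdf10 (0.92).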

How the results depend on the processing

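No value changed direction under any alternative run, and the numbers of genes higher in kidney (74 to 108, 98 as reported) and lower in kidney (54 to 98, 80 as reported) stayed within 1.5 times of the reported ones. Both were lowest without the probe sets that share probes, 217 of the 963 named ones, so fewer genes could be called there. Genes above each tissue, 28 as reported, numbered 70 against the tissues of the B4galnt1/B4galnt2 line, 43 without brain and 44 without intestine. Genes below each tissue, 1 as reported, numbered 0 without shared probe sets, 9 in the tissues of the line, 3 without brain, intestine or lymph node, and 4 without testes. Leaving out 1 kidney animal gave 0 to 2 genes lower in DKO, and 10 to 27 higher and 24 to 75 lower in males. The spread over all groups of the line gave 0 lower in DKO, and 14 higher and 10 lower in males. DKO animals alone gave 9 higher and 36 lower in males, and a second quantile normalization gave 39 higher. With the replicate block, 98 genes were higher and 80 lower in kidney, 28 were above each tissue, and 7 genes had a negative sex difference between tissues, as with a second quantile normalization. No paired analysis was possible within kidney because each animal gave 1 kidney array. Of the named genes, 84 values lost and 2 gained a call under an alternative, against 2732 that kept theirs, and the cause was not tested. Dim signal limits B4galnt2, which lies below the 25th percentile of all values (4.211) in every kidney.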
